A study of Mus musculus with 16 samples.

Results

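Acute-phase proteins are secreted proteins whose levels change in inflammation. Genes of such proteins and of the *Serpina3* cluster of serine protease inhibitors, 10 in all, were examined here in mouse chondrocytes. They are the serum amyloid A genes *Saa1*, *Saa2* and *Saa3*, the lipocalin gene *Lcn2*, the haptoglobin gene *Hp*, the long pentraxin gene *Ptx3*, and *Serpina3n*, *Serpina3g*, *Serpina3f* and *Serpina3i* from the cluster. They were chosen by gene symbol and make up 10 of the 55414 gene identifiers in the count data. RNA-Seq was carried out on 16 libraries of chondrocyte-enriched cells grown in monolayer from epiphyseal cartilage of C57BL/6 mice aged 3 to 4 days, males and females pooled. The 4 groups, of 4 libraries each, were control cells from wild type littermates and cells from heterozygous *Notch2* mutant mice (Notch2tm1.1Ecan), each exposed for 6 h to vehicle (PBS) or to 50 ng/ml of TNFα. The *Notch2* mutant allele is carried in every cell of the animal, not in chondrocytes alone, and it introduces a stop codon ahead of the PEST domain, which marks the NOTCH2 intracellular domain for degradation. The study asked how this gain of NOTCH2 function alters the response of chondrocytes to TNFα.

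In the liver, the acute phase is driven chiefly by interleukin 6, which acts through STAT3, and by interleukin 1 and TNFα, which act through NF-κB and C/EBP factors. Several of the genes are also expressed outside the liver: *Saa3* is the serum amyloid A form of inflamed connective tissue and macrophages, *Lcn2* encodes a binder of bacterial siderophores that is secreted by chondrocytes and neutrophils, and *Ptx3* is made locally by mesenchymal and myeloid cells rather than by hepatocytes. The mouse *Serpina3* cluster holds many copies of what is a single gene in humans.

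The sample annotation records serum deprivation only for the groups given TNFα, whereas the methods of the study give it for vehicle as well, so that if the annotation is right TNFα and the removal of serum cannot be told apart in the comparisons of TNFα with vehicle. The comparisons between genotypes are not touched by this. The libraries held 3439726 to 44237300 counts on genes, and the shallowest was *Notch2* mutant TNFα replicate 4. *Heyl*, a Notch target gene, was expressed at 0.152 to 0.298 CPM (counts relative to the scaled total of the library) in control vehicle libraries and at 1.44 to 2.28 CPM in *Notch2* mutant ones, and at 0.0788 to 0.549 and 1.17 to 1.99 CPM with TNFα, so that the libraries lay on the side their genotype labels give. *Notch2* was at 103.7 to 151.1 CPM in control and 136.5 to 164.2 CPM in *Notch2* mutant vehicle libraries and at 128.6 to 188.2 and 209.5 to 240.5 CPM with TNFα, and counts over the whole gene do not show the mutation. Control vehicle replicate 4 stood apart from the other vehicle libraries. The summed level of 10 TNFα response genes (*Nfkbia*, *Tnfaip3*, *Icam1*, *Vcam1*, *Cxcl1*, *Cxcl10*, *Ccl2*, *Ccl5*, *Birc3* and *Traf1*) was 1320.2 CPM in it, against 113.8 to 133.9 CPM in the other 7 vehicle libraries and 6974.9 to 8832 CPM in the 8 TNFα libraries, in which control TNFα replicate 4 had the lowest sum. Where leaving out control vehicle replicate 4 changed a call, turned a direction or moved a named value widely, the value without it is given as well.

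All 14 chondrocyte markers examined, *Col2a1*, *Acan* and *Sox9* among them, were detected in every group, and each was lower in *Notch2* mutant than in control cells (adjusted p under 0.05) with vehicle, where 13 of 14 were without control vehicle replicate 4, and with TNFα, where 4.35% and 4.31% of all genes tested were. Their summed level was 51876 to 55673.9 CPM in control vehicle, 32352.9 to 37587.3 CPM in *Notch2* mutant vehicle, 37620.6 to 44600.5 CPM in control TNFα and 20395.8 to 23272.4 CPM in *Notch2* mutant TNFα libraries. Of 12 macrophage markers, 9 were higher in *Notch2* mutant cells with vehicle and 11 with TNFα, against 6.19% and 5.63% of all genes tested, none was lower and none was without counts in any group. Without control vehicle replicate 4, 10 were higher with vehicle, against 5.78% of all genes. Their sum was 71.2 to 77.5 CPM in control vehicle and 131.8 to 152.4 CPM in *Notch2* mutant vehicle libraries, and 85.7 to 99.8 and 177.6 to 201 CPM with TNFα. In bulk samples fewer cells of a type and less RNA per cell cannot be told apart, and the part of these markers in the differences between genotypes below was not tested.

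The promoters of 6 of the genes are shown because they contrast the genes with the widest range of responses, namely *Saa3*, *Lcn2* and *Ptx3* from different families, and *Serpina3g* and *Serpina3i* beside *Serpina3n*, the gene with the smallest response among the 4 of the cluster examined. The sequences are from RefSeq (GRCm38.p6), run 5′ to 3′ in the sense of the gene from 250 bases before the annotated start through the first 10 transcribed bases, and carry in capitals the matches to 3 motifs: the NF-κB consensus, the C/EBP motif TTGCNNAA and the STAT motif TTCNNNGAA, each searched on both strands.
Saa3 (chr7:46715667-46715926, minus strand): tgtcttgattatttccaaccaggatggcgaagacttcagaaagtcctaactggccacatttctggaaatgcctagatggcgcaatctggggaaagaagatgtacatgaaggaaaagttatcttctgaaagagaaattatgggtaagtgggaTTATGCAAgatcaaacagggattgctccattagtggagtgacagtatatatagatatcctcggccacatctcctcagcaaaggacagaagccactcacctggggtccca
Lcn2 (chr2:32387730-32387989, minus strand): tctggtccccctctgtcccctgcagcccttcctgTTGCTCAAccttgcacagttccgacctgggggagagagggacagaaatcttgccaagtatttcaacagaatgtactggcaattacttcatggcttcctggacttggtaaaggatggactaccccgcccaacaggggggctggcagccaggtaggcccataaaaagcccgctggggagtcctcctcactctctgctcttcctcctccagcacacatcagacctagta
Ptx3 (chr3:66219637-66219896, plus strand): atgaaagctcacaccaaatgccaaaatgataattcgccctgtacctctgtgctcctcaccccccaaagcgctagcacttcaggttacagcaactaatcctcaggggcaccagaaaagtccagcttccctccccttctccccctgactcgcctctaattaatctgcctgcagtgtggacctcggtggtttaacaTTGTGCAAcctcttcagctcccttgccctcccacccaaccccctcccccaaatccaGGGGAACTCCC
Serpina3g (chr12:104235897-104236156, plus strand): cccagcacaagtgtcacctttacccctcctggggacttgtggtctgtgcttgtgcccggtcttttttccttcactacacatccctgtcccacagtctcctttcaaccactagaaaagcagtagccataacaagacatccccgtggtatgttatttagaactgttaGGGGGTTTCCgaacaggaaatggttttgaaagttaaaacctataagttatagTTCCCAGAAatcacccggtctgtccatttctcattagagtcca
Serpina3i (chr12:104262872-104263131, plus strand): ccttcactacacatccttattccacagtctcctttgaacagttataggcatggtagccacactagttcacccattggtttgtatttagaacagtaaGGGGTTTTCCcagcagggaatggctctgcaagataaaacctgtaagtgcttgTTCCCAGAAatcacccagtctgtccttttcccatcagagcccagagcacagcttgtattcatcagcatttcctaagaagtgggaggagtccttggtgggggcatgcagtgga
Serpina3n (chr12:104406458-104406717, plus strand): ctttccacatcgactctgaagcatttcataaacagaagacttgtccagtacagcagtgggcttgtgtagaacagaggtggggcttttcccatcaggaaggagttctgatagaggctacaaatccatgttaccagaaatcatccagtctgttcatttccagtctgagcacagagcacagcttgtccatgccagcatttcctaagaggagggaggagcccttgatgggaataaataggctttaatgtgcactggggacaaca

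Matches were sought in 300 bases per start site, the sequence shown and 40 more transcribed bases, and 9 of the 10 genes had a promoter in the table used. Of 32851 mouse promoters of this length, 4.5% held the NF-κB consensus, 10.8% the C/EBP motif and 8.3% the STAT motif. *Serpina3g* held an NF-κB match 85 to 76 bases and a STAT match 33 to 25 bases before its start, and *Serpina3i* an NF-κB match 154 to 145 and a STAT match starting 102 bases before it. *Serpina3n* held neither, although its promoter was 73.2% identical to that of *Serpina3g* and 76.5% identical to that of *Serpina3i* over the aligned bases. The first start site of *Serpina3f* held a STAT match and 2 C/EBP matches and no NF-κB match. In *Ptx3*, 2 overlapping NF-κB matches, 1 on each strand, lay at the start site and a C/EBP match 57 to 50 bases before it. The match on the plus strand began 1 base before the start, and that on the minus strand covered transcribed bases 1 to 10. *Saa3* held a C/EBP match 99 to 92 bases before the start and *Lcn2* held 1 farther upstream, and so did *Saa1* and *Saa2*, whose promoters were 96% identical. The motif TGGGAA of RBPJ, the DNA-binding partner of the Notch intracellular domain, is held by 25.6% of promoters and was found in *Saa1*, *Serpina3n*, *Serpina3g*, *Serpina3f* and *Serpina3i*. In *Serpina3g* and at 1 of 3 places in *Serpina3i* the RBPJ match lies inside the STAT match, and at another place in *Serpina3i* it overlaps the NF-κB match. The interferon-stimulated response element, held by 3.4% of promoters, was found in *Saa3* alone among the 9 genes, and TATAAA, held by 13.6%, in *Serpina3f* alone. A match of letters is a description and no evidence of binding.

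TNFα raised the level of every one of the 10 genes in control cells and of the 9 that could be tested in *Notch2* mutant cells, but by very different amounts, from 1.21-fold for *Serpina3n* in control cells to 820.9-fold for *Saa3* in *Notch2* mutant cells. In control cells 10 of 10 genes were higher with TNFα at an adjusted p under 0.05 (quasi-likelihood F test of edgeR, adjusted by Benjamini and Hochberg across the genes tested; SE below is the standard error of a log2 fold change), where 23.3% of all genes tested were (9 of 10 without control vehicle replicate 4, where *Saa1* did not pass), and 8 of 10 were past the threshold that also asks for a log2 fold change of at least 1, where 8.47% were. In *Notch2* mutant cells these counts were 9 of 9, against 22.6% of all genes, and 8 of 9, against 9.2%. The median log2 fold change was 3.18 over the genes in control cells and 4.07 in *Notch2* mutant cells, and 0.0389 and 0.0258 over all genes tested. *Saa1*, *Saa2* and *Serpina3i* entered these tests through their counts with TNFα, so the counts of genes are a description and no support for a common direction. The plot of the 10 genes by library shows the levels that these values summarise.

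**Figure D1:**
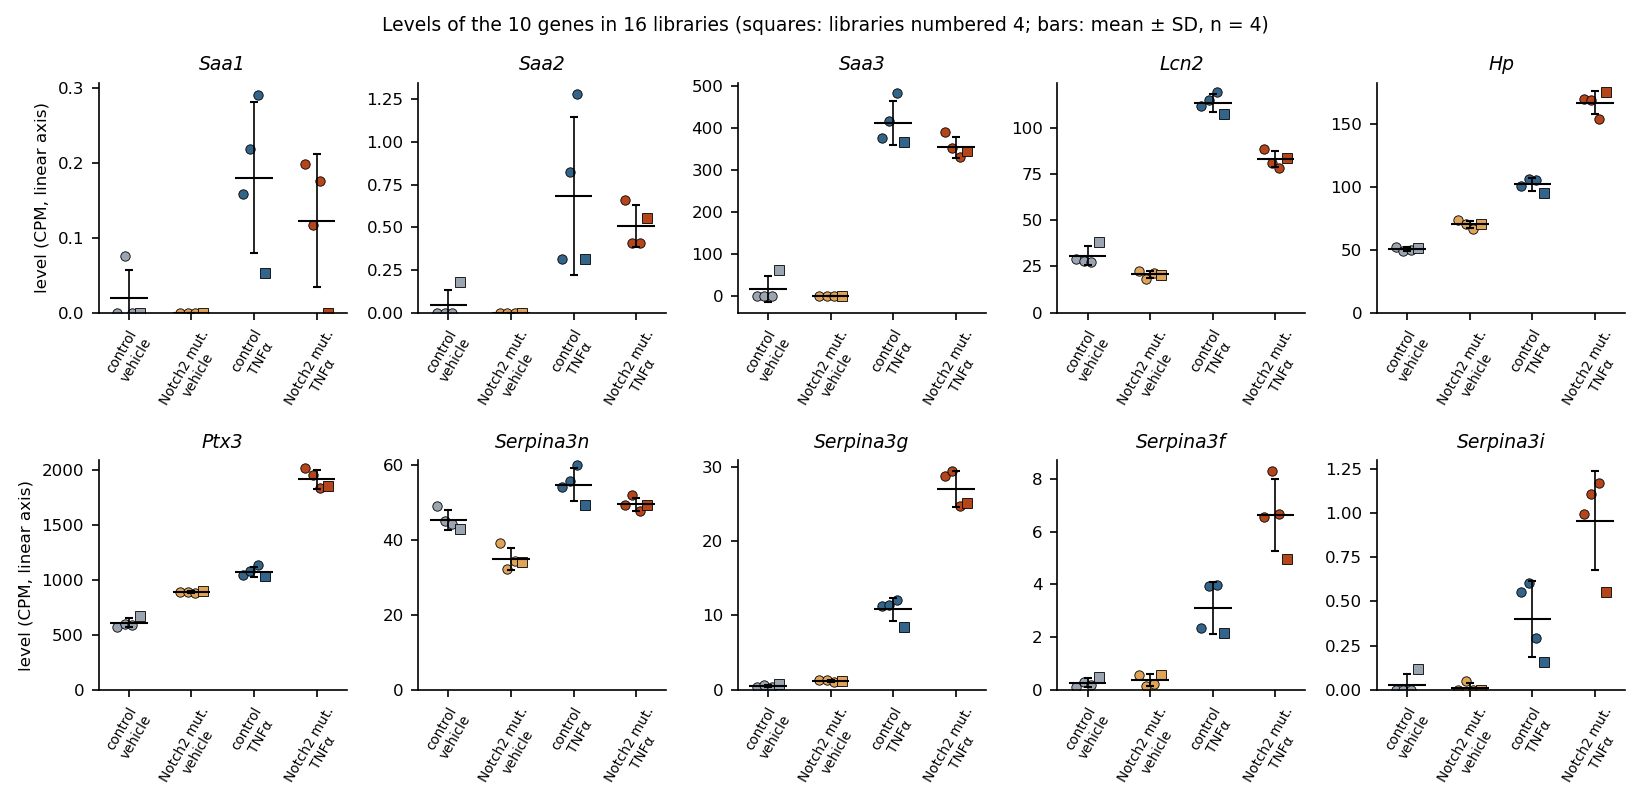
Levels of the 10 genes (CPM, linear axes that differ between panels) in each of the 16 libraries, by group; points are libraries, squares the libraries numbered 4, and black bars the mean ± SD (n = 4). *Hp*, *Ptx3* and *Serpina3g* were highest in *Notch2* mutant TNFα libraries, *Lcn2* in control TNFα libraries, and the control vehicle square of *Saa3* stands at 62.1 CPM above the other vehicle libraries.

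Among the serum amyloid A genes, which encode apolipoproteins of high-density lipoprotein, *Saa3* (ENSMUSG00000040026, chr7:46361422-46365576 of GRCm39, minus strand) showed the largest rise of the 10 genes. Its levels were 0.608, 0.761, 1.22 and 62.1 CPM in control vehicle replicates 1 to 4, and 377.5, 417.6, 482.6 and 367.9 CPM in control TNFα replicates. In *Notch2* mutant cells they were 0.413, 0.411, 0.726 and 0.299 CPM with vehicle and 389.9, 353.2, 331.7 and 344.3 CPM with TNFα. The TNFα libraries of either genotype thus lay above every vehicle library, and control vehicle replicate 4 lay between the groups. The log2 fold change with TNFα was 9.68 in *Notch2* mutant cells (SE 0.126, adjusted p = 3.6e-28, edgeR). In control cells it was 4.64 (SE 1.45, adjusted p = 0.042, edgeR), and without control vehicle replicate 4 it was 8.9 (adjusted p = 1.23e-09). The adjusted p rose above 0.05 when any other library of the 8 was left out, to between 0.0697 and 0.0862. The difference between genotypes with vehicle turned on that same library: the log2 fold change of *Notch2* mutant against control was -5.22 (SE 2.07, adjusted p = 0.214, edgeR) with it and -0.95 (adjusted p = 0.187) without it, and passed the test in neither fit. With TNFα it was -0.2 (SE 0.0747, adjusted p = 0.102, edgeR), and the adjusted p was 0.0168 without control TNFα replicate 4, at a log2 fold change of -0.26.

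*Saa1* (ENSMUSG00000074115, chr7:46389916-46392547) and *Saa2* (ENSMUSG00000057465, chr7:46401214-46403737), the circulating forms in the mouse, were close to the limit of detection. *Saa2* had 0, 0, 0 and 3 counts in control vehicle replicates 1 to 4 and 4, 15, 22 and 6 with TNFα, and 0 in every *Notch2* mutant vehicle library against 10, 7, 7 and 2 with TNFα. Its level with TNFα was 14.8 times that with vehicle in control cells by the summed counts (95% exact interval 4.77 to 74.4, counting error only; adjusted p = 0.00101, edgeR) and at least 15.8-fold higher in *Notch2* mutant cells, taking 3 counts over the vehicle group as the floor (adjusted p = 2.45e-05, edgeR). All 3 of its control vehicle counts were in replicate 4, and without that library the rise in control cells was at least 10.9-fold by the same floor (adjusted p = 0.000219, edgeR). *Saa1* reached at most 5 counts in a library, with 1 count over the control vehicle group and 12 over the control TNFα group, a ratio of 11.4 (95% exact interval 1.68 to 485.2, counting error only). Its adjusted p in control cells was 0.0387 (edgeR) and rose to between 0.051 and 0.0961 in 4 of the 6 fits with 1 library left out that still held enough counts to test it (without control vehicle replicate 1, 3 or 4 or control TNFα replicate 1), while in *Notch2* mutant cells it had 8 counts with TNFα and none with vehicle, too few for the test and at least 4.87-fold higher by the same floor. *Saa1* and *Saa2* transcripts were 94.8% identical, yet 3.7% of the 75-base words of the *Saa1* transcript and 4.8% of those of *Saa2* also occur in another counted gene, so that few stretches of read length are shared. *Saa4*, the remaining serum amyloid A gene of the cluster, had no counts with vehicle and 5, 6, 3 and 7 counts in control TNFα and 3, 4, 5 and 2 in *Notch2* mutant TNFα libraries, at least 6.62-fold and at least 8.53-fold higher (adjusted p = 0.00132 and 0.000602, edgeR). *Saa1*, *Saa2* and *Saa4* held enough counts for the tests of TNFα against vehicle only through the TNFα libraries, so those p-values are no support for a rise. None of *Saa1*, *Saa2* and *Saa4* passed the test between genotypes with TNFα, where the *Saa2* log2 fold change was -0.47 (SE 0.487, adjusted p = 0.642, edgeR).

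*Lcn2* (ENSMUSG00000026822, chr2:32274645-32278264, minus strand) rose with TNFα and was lower in *Notch2* mutant cells in either condition. Control vehicle replicates had 28.9, 28.1, 27.4 and 38.3 CPM, and *Notch2* mutant vehicle replicates had 22.7, 18.4, 21.2 and 20.4 CPM. With TNFα the levels were 111.6, 115, 119.2 and 107.6 CPM in control and 88.7, 81, 78.4 and 83.9 CPM in *Notch2* mutant libraries. No library of a group overlapped with another group, and control vehicle replicate 4 was again the highest vehicle library. The log2 fold change with TNFα was 1.89 in control (SE 0.106, adjusted p = 2.32e-07) and 2.01 in *Notch2* mutant cells (SE 0.0754, adjusted p = 2.86e-18, edgeR). That of *Notch2* mutant against control was -0.57 with vehicle (SE 0.102, adjusted p = 0.000878) and -0.44 with TNFα (SE 0.0622, adjusted p = 1.06e-05, edgeR), and -0.45 with vehicle without control vehicle replicate 4 (adjusted p = 0.000311). *Lcn2* is thus a gene that TNFα raised and that was lower in the cells with the *Notch2* mutation, opposite in its genotype difference to *Hp* and *Ptx3*.

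*Hp* (ENSMUSG00000031722, chr8:110301759-110305804, minus strand) encodes the plasma protein that binds free hemoglobin. It was expressed at 52.3, 48.8, 49.9 and 51.3 CPM in control vehicle and at 73.4, 70.7, 66.4 and 70.9 CPM in *Notch2* mutant vehicle replicates. With TNFα it stood at 100.9, 106.6, 105.7 and 95.4 CPM in control and 169.7, 169.4, 154.1 and 175.7 CPM in *Notch2* mutant replicates. The 4 groups did not overlap, and the order from control vehicle to *Notch2* mutant TNFα was the same in every library. TNFα raised *Hp* 2.03-fold in control cells (log2 fold change 1.02, SE 0.0544, adjusted p = 1.35e-11, edgeR) and 2.37-fold in *Notch2* mutant cells (1.25, SE 0.063, adjusted p = 2.06e-15). Between genotypes the log2 fold change was 0.48 with vehicle (SE 0.0564, adjusted p = 1.84e-06, edgeR) and 0.72 with TNFα (SE 0.0632, adjusted p = 2.99e-09), higher in *Notch2* mutant cells. *Hp* is also a gene of adipocytes. Of the 4 adipocyte markers tested, 3 were higher in *Notch2* mutant cells in either condition, against 6.19% of all genes with vehicle and 5.63% with TNFα. All 4 fell with TNFα in either genotype, against 20.9% of all genes in control and 21.9% in *Notch2* mutant cells. The summed level of the 5 markers in the list was 87.9 to 106.4 CPM in control vehicle, 151.3 to 174.2 CPM in *Notch2* mutant vehicle, 59.7 to 76.4 CPM in control TNFα and 86.6 to 119.9 CPM in *Notch2* mutant TNFα libraries, with *Lep* at 0 counts in 3 of the groups, and their part in the *Hp* difference was not tested.

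*Ptx3* (ENSMUSG00000027832, chr3:66127331-66133226) was the most abundant of the 10 genes and encodes a soluble pattern recognition protein that also stabilises hyaluronan-rich matrix. Its levels were 574.1, 603.9, 594.6 and 673.7 CPM in control vehicle and 891.6, 892.4, 885.4 and 898.3 CPM in *Notch2* mutant vehicle replicates. With TNFα they were 1044.9, 1082.2, 1134.8 and 1034.1 CPM in control and 2019.7, 1961.2, 1839.4 and 1856.2 CPM in *Notch2* mutant replicates. As for *Hp*, the 4 groups did not overlap and rose in the same order. The log2 fold change with TNFα was 0.82 in control cells (SE 0.0502, adjusted p = 1.92e-10), under the fold threshold, and 1.11 in *Notch2* mutant cells (SE 0.0552, adjusted p = 1.55e-15, edgeR). Between genotypes it was 0.55 with vehicle (SE 0.0519, adjusted p = 6.78e-08) and 0.85 with TNFα (SE 0.0603, adjusted p = 5.99e-11, edgeR). *Ptx3* lies within *Veph1* on the other strand, and the strand setting of the authors' counting is not given in the sources used here. TNFAIP6, with which PTX3 acts in the hyaluronan matrix, is encoded by *Tnfaip6*, whose level was 6.62 to 7.08 CPM in control vehicle, 8.16 to 8.86 in *Notch2* mutant vehicle, 12.4 to 16.8 in control TNFα and 29.9 to 32.3 CPM in *Notch2* mutant TNFα libraries.

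The *Serpina3* genes encode inhibitors of chymotrypsin-like and related serine proteases, of which *Serpina3n* inhibits granzyme B and leukocyte elastase, while *Serpina3g* acts inside the cell on lysosomal cathepsins. Among the 4 genes of the cluster examined, *Serpina3n* had by far the highest level and the smallest response, while *Serpina3g*, *Serpina3f* and *Serpina3i* were near the limit of detection with vehicle, rose more than 10-fold with TNFα (for *Serpina3i*, by its summed counts) and were higher in *Notch2* mutant than in control cells given TNFα. *Serpina3n* (ENSMUSG00000021091, chr12:104372810-104380597) was at 49.1, 45.2, 44.4 and 42.9 CPM in control vehicle, 39.2, 32.2, 34.5 and 34.1 CPM in *Notch2* mutant vehicle, 54.2, 55.8, 60 and 49.5 CPM in control TNFα and 49.5, 52, 47.7 and 49.4 CPM in *Notch2* mutant TNFα replicates. The vehicle groups did not overlap, and the TNFα groups did. Its log2 fold change with TNFα was 0.28 in control (SE 0.0635, adjusted p = 0.000946) and 0.51 in *Notch2* mutant cells (SE 0.0738, adjusted p = 1.8e-06, edgeR). *Notch2* mutant cells had less of it with vehicle, by a log2 fold change of -0.37 (SE 0.0697, adjusted p = 0.000638, edgeR), and with TNFα the value was -0.13 (SE 0.0692, adjusted p = 0.271).

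*Serpina3g* (ENSMUSG00000041481, chr12:104202386-104208203) was at 0.442, 0.609, 0.386 and 0.714 CPM in control vehicle and at 1.38, 1.28, 1.04 and 1.17 CPM in *Notch2* mutant vehicle replicates. With TNFα it reached 11.3, 11.4, 12.1 and 8.47 CPM in control and 28.8, 29.4, 24.7 and 25.1 CPM in *Notch2* mutant replicates. The 4 groups did not overlap, and every *Notch2* mutant library had more than 2 times the level of the highest control library with TNFα. TNFα raised it by a log2 fold change of 4.32 in control (SE 0.212, adjusted p = 6.45e-12) and 4.5 in *Notch2* mutant cells (SE 0.132, adjusted p = 1.12e-20, edgeR). Between genotypes the log2 fold change was 1.35 with TNFα (SE 0.105, adjusted p = 4.1e-10, edgeR) and 1.17 with vehicle (SE 0.311, adjusted p = 0.0148), where the counts were 6 to 12 per control library and the adjusted p rose to 0.0535 and 0.0557 without control vehicle replicate 1 or 3. The pseudogene *Gm56487* lies inside *Serpina3g* on the same strand and held no count in any library, and 55.7% of the 75-base words of the *Serpina3g* transcript occur in another counted gene. Its level may therefore rest on part of its transcript, which was not resolved and touches its place among the other genes more than its comparison between groups.

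*Serpina3f* (ENSMUSG00000066363, chr12:104180772-104187388) was at 0.111, 0.305, 0.193 and 0.476 CPM in control vehicle and 0.551, 0.154, 0.207 and 0.575 CPM in *Notch2* mutant vehicle replicates, which overlapped. With TNFα it was at 2.36, 3.95, 3.96 and 2.14 CPM in control and 6.55, 8.3, 6.67 and 4.97 CPM in *Notch2* mutant replicates, which did not. The log2 fold change with TNFα was 3.51 in control (SE 0.373, adjusted p = 8.22e-08; 3.97 without control vehicle replicate 4) and 4.07 in *Notch2* mutant cells (SE 0.27, adjusted p = 8.15e-13, edgeR). That between genotypes was 1.15 with TNFα (SE 0.195, adjusted p = 0.00014; 0.98 without control TNFα replicate 4) and 0.52 with vehicle (SE 0.565, adjusted p = 0.676, edgeR; 0.98, adjusted p = 0.431 without control vehicle replicate 4). *Serpina3i* (ENSMUSG00000079014, chr12:104229363-104238677) had 2 counts over the control vehicle group and 1 over the *Notch2* mutant vehicle group. With TNFα it had 7, 11, 5 and 3 counts in control and 15, 19, 20 and 2 counts in *Notch2* mutant replicates, of which the last is the shallow library. By the summed counts TNFα raised it 12.3 times in control (95% exact interval 3.08 to 106.9, counting error only; adjusted p = 0.00515, edgeR) and 102.4 times in *Notch2* mutant cells (17.6 to 4114.1; adjusted p = 1.43e-07). Both of its control vehicle counts were in replicate 4, and without that library the rise in control cells was at least 6.03-fold, taking 3 counts over the group as the floor (adjusted p = 0.00159, edgeR). *Serpina3i* held enough counts for these tests only through the TNFα libraries, so the p-values are no support for the rise. The log2 fold change between genotypes with TNFα was 1.39 (SE 0.433, adjusted p = 0.038, edgeR). It lost the test in 5 of the 8 fits with 1 library left out, among them without control TNFα replicate 4 (1.09 on the log2 scale, adjusted p = 0.121), and with DESeq2 (adjusted p = 0.065), with all 16 libraries in 1 fit (0.0761) and with the replicate number as a block (0.0946). The transcripts of *Serpina3f*, *Serpina3g* and *Serpina3i* were 88 to 89.5% identical to each other and 78.7 to 82.4% identical to that of *Serpina3n*, so counts of such copies are less certain, although 5.5% of the 75-base words of *Serpina3f* and 6.6% of those of *Serpina3i* occur in another counted gene.

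Of the 10 other annotated genes and pseudogenes of the cluster, 4 could be tested. *Serpina3h*, annotated as a transcribed pseudogene between *Serpina3g* and *Serpina3i*, was at 1.02, 3.35, 2.62 and 1.78 CPM in control TNFα and at 6.62, 6.32, 6.73 and 6.35 CPM in *Notch2* mutant TNFα libraries, above 0.156 to 0.462 CPM in all vehicle libraries. Its log2 fold change with TNFα was 2.8 in control (adjusted p = 4.46e-06) and 4.56 in *Notch2* mutant cells (adjusted p = 2.28e-14, edgeR), and that between genotypes with TNFα was 1.54 (SE 0.223, adjusted p = 2.12e-05). The pseudogene *Serpina3e-ps* rose with TNFα in *Notch2* mutant cells (4.31, adjusted p = 1.17e-08, edgeR) and was higher in them with TNFα (1.24, SE 0.316, adjusted p = 0.00931), a call lost in 2 of the 8 fits with 1 library left out. In control cells its log2 fold change with TNFα was 1.01 (adjusted p = 0.0592, edgeR). With vehicle that of *Notch2* mutant against control was -2.02 (SE 0.675, adjusted p = 0.0593, edgeR), on 9 counts over the *Notch2* mutant and 27 over the control group. *Serpina3m* rose with TNFα in control (2.91, adjusted p = 0.00204, edgeR; 4.92 without control vehicle replicate 4, which held 6 of its 7 vehicle counts) and *Notch2* mutant cells (2.23, adjusted p = 0.0133), and had a log2 fold change of -0.94 between genotypes with TNFα (SE 0.482, adjusted p = 0.265). *Serpina3m*, and *Serpina3e-ps* in *Notch2* mutant cells, held enough counts for the tests of TNFα only through the TNFα libraries. *Serpina3c* was at 0.608 to 2.05 CPM over all libraries and passed the test in no comparison with all of them, and without control vehicle replicate 4 it was higher in *Notch2* mutant cells with vehicle (1.14, SE 0.299, adjusted p = 0.0131, edgeR). *Serpina3a*, *Serpina3b*, *Serpina3j*, *Serpina3d-ps* and *Serpina3l-ps* had 0 counts in all libraries and *Serpina3k* had 1. The genes of the cluster called higher in *Notch2* mutant cells with TNFα therefore lay side by side on chromosome 12, from *Serpina3e-ps* through *Serpina3f*, *Serpina3g* and *Serpina3h* to *Serpina3i*, as the plot of the cluster in gene order shows. At the end of this stretch the *Serpina3i* call depended on single libraries, and its genotypes overlapped with TNFα (control up to 0.604, *Notch2* mutant down to 0.552 CPM). The part of reads shared between these copies was not tested.

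**Figure D2:**
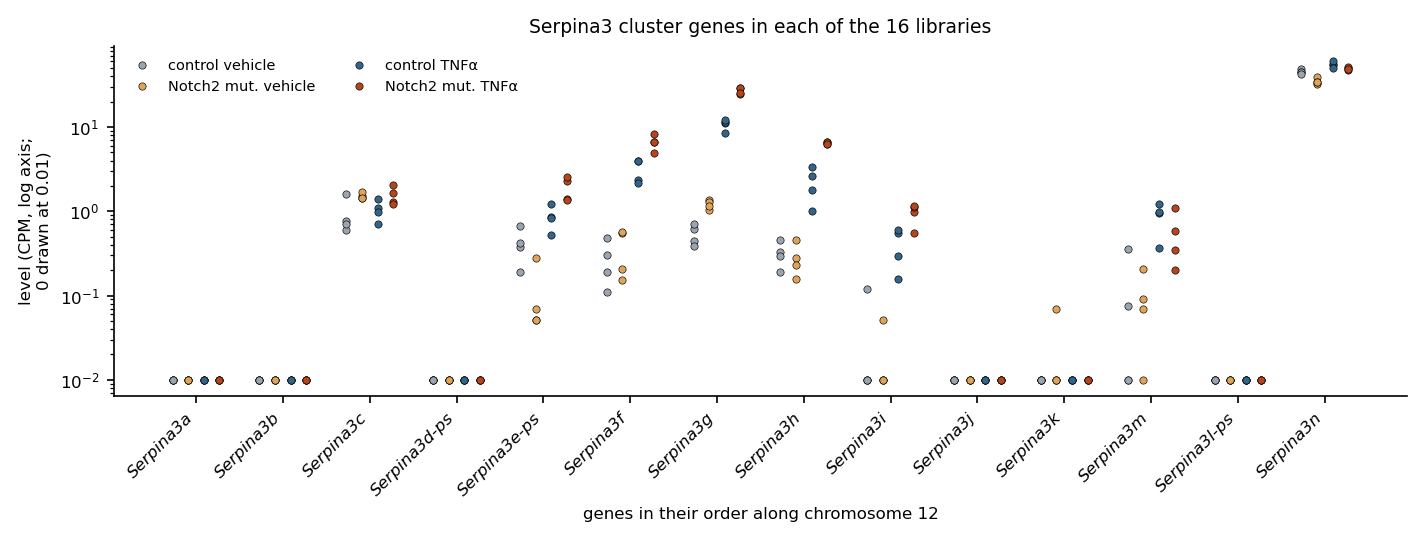
Levels of the 14 *Serpina3* genes and pseudogenes (CPM, log axis, libraries at 0 drawn at 0.01) in their order along chromosome 12, with 1 point per library coloured by group. *Serpina3e-ps* to *Serpina3i* stand at 0.552 CPM or more in every *Notch2* mutant TNFα library, *Serpina3n* stays between 32.2 and 60 CPM in all 16, and 5 genes have no counts.

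The genotype comparisons asked which of the genes differed between *Notch2* mutant and control cells under the same treatment, and the genes split in direction. With vehicle, 3 of the 7 genes tested were higher in *Notch2* mutant cells at an adjusted p under 0.05 (*Hp*, *Ptx3* and *Serpina3g*), where 6.19% of all genes tested were, and 2 were lower (*Lcn2* and *Serpina3n*), where 4.35% were. Only *Serpina3g* was past the fold threshold, in a comparison where 0.957% of genes were higher past it. With TNFα, 5 of 10 were higher (*Hp*, *Ptx3*, *Serpina3g*, *Serpina3f* and *Serpina3i*), against 5.63% of all genes, and *Lcn2* alone was lower, against 4.31%. The 3 *Serpina3* genes *Serpina3g*, *Serpina3f* and *Serpina3i* were past the fold threshold, against 1.02% of all genes. The control and *Notch2* mutant libraries of the comparisons with TNFα also serve the comparisons of TNFα with vehicle, so the values of the comparisons are set side by side and are not independent.

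**Figure D3:**
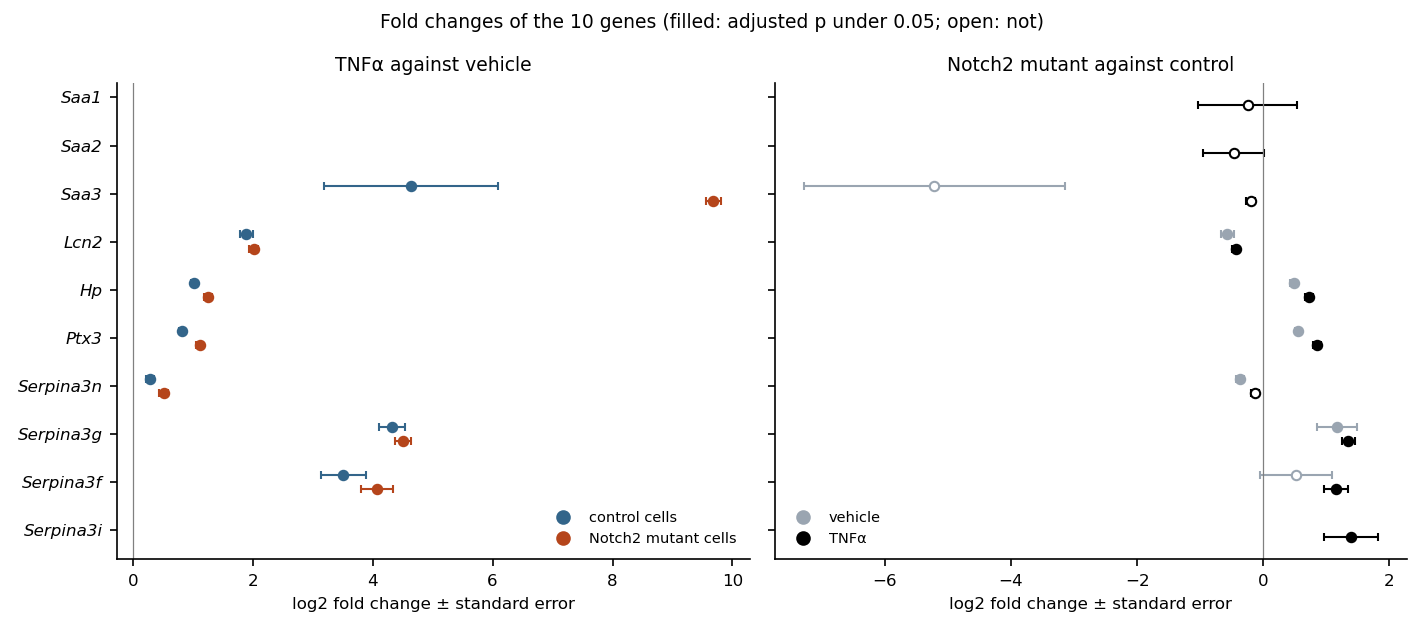
Log2 fold changes (x axis, ± standard error) of the genes with TNFα against vehicle in each genotype (left) and in *Notch2* mutant against control cells under each treatment (right), filled where the adjusted p was under 0.05. *Saa1*, *Saa2* and *Serpina3i* are left out on the left because their vehicle groups held at most 3 counts, and genes too low for the test are left out on the right. *Hp*, *Ptx3* and *Serpina3g* lie to the right of 0 and *Lcn2* to the left of it between genotypes, and the wide bars of *Saa3* come with control vehicle replicate 4.

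Whether TNFα acted differently in the genotypes was tested by the interaction, that is the log2 fold change with TNFα in *Notch2* mutant cells minus that in control cells. None of the 10 genes passed it at an adjusted p under 0.05 with edgeR, where 0.474% of all genes tested did, and 4 of the 10 (*Saa3*, *Hp*, *Serpina3n* and *Ptx3*) had an unadjusted p under 0.05, against 8.71% of all genes, while DESeq2 called *Ptx3*. *Ptx3* came closest, at 0.29 (SE 0.0745, adjusted p = 0.0644, edgeR), and its adjusted p was under 0.05 in 7 of the 22 alternative fits, with a range of 0.00457 to 0.245. *Hp* had an interaction of 0.23 (SE 0.084, adjusted p = 0.299, edgeR) and *Serpina3n* of 0.24 (SE 0.0991, adjusted p = 0.437). For *Lcn2* it was 0.13 (SE 0.113, adjusted p = 0.817, edgeR) and -0.016 without control vehicle replicate 4, and for *Serpina3g* 0.18 (SE 0.328, adjusted p = 0.928) and -0.018. For *Saa3* it was 5.03 (SE 1.81, adjusted p = 0.4, edgeR) and 0.77 without control vehicle replicate 4. The estimates for *Serpina3g* and *Lcn2* thus differed between genotypes by similar amounts with and without TNFα on the log2 scale. The test of the difference passed for neither, which does not show that the amounts were equal, and the SE for *Serpina3g* was wide at 0.328.

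The library that stood apart did not move all of the genes. In control vehicle replicate 4 *Saa3* was at 62.1 CPM against 0.608 to 1.22 CPM in the other 3 control vehicle libraries, and *Lcn2* at 38.3 against 27.4 to 28.9 CPM. *Ptx3* was at 673.7 against 574.1 to 603.9 CPM, *Hp* at 51.3 against 48.8 to 52.3 CPM, and *Serpina3n* at 42.9 against 44.4 to 49.1 CPM. *Serpina3g* was at 0.714 against 0.386 to 0.609 CPM and *Serpina3f* at 0.476 against 0.111 to 0.305 CPM, both highest in that library. *Saa2* and *Serpina3i* had 3 and 2 counts in it and none in the other 3. *Saa3* in it remained under the 367.9 CPM of the lowest control TNFα library, and *Hp* and *Serpina3n* lay within or below the range of the other vehicle libraries of their group. What set this library apart was not tested.

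**Figure D4:**
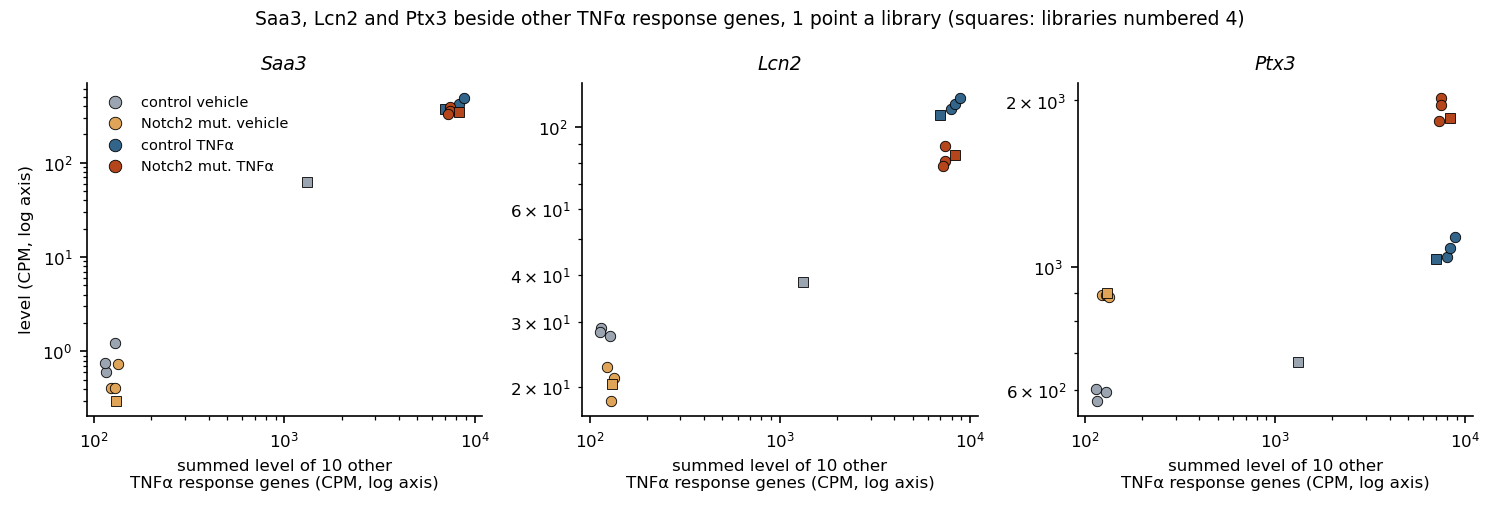
Levels of *Saa3*, *Lcn2* and *Ptx3* (CPM, log axes) against the summed level of 10 other TNFα response genes (CPM, log axis), with 1 point per library coloured by group and squares for the libraries numbered 4. Control vehicle replicate 4 lies alone at a sum of 1320.2 CPM between the other vehicle libraries (113.8 to 133.9 CPM) and the TNFα libraries (6974.9 to 8832 CPM), and the genotypes separate in *Lcn2* and *Ptx3* at like sums.

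Levels per transcript length put the genes in order within a group. *Ptx3* was first in every group, at 322.2 ± 22.8 CPM per kb (SD, n = 4) in control vehicle, 469.9 ± 2.77 in *Notch2* mutant vehicle, 565.9 ± 24 in control TNFα and 1011.1 ± 45.3 CPM per kb in *Notch2* mutant TNFα libraries. *Saa3* was second in both TNFα groups, at 408.5 ± 51.8 and 352.3 ± 24.9 CPM per kb. *Lcn2* and *Hp* changed places between genotypes: with TNFα *Lcn2* followed *Saa3* in control cells at 123.9 ± 5.41 CPM per kb above *Hp* at 75.9 ± 3.8, and *Hp* took that place in *Notch2* mutant cells at 124.3 ± 6.85 CPM per kb above *Lcn2* at 90.7 ± 4.8. With vehicle *Hp* was above *Lcn2* in *Notch2* mutant libraries, and in control ones they overlapped through replicate 4 alone: in the other 3 *Hp* was at 36.3 to 38.9 and *Lcn2* at 30 to 31.6 CPM per kb. *Serpina3n* followed at 15.5 to 24.4 CPM per kb on average in all groups, and *Serpina3g* came next in both TNFα groups, reaching 13 ± 1.18 CPM per kb in *Notch2* mutant TNFα libraries, while with vehicle its libraries overlapped with those of *Saa3* or *Serpina3f*. The lowest places, held by *Saa1*, *Saa2*, *Serpina3f* and *Serpina3i*, overlapped with a neighbour in at least 1 group each.

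The genes most alike in pattern to 3 of the 10 were sought among 13431 genes with a mean of at least 1 CPM, as those with the smallest root mean square difference of log2(CPM + 0.5) over the 16 libraries after centring each gene on its own mean. For *Lcn2* they were *Abcc4* (0.121), *C1s1* (0.15) and *Oas1c* (0.166), beside a spread of 1 in *Lcn2* itself on this scale. For *Saa3* they were *Cxcl9* (0.356), *Gbp5* (0.493) and *Nos2* (0.551), beside a spread of 4.1. Control vehicle replicate 4 stood apart in these genes as in *Saa3*, at 53, 51.9 and 65.2 CPM against at most 0.45, 0.0643 and 0 CPM in the other 3 control vehicle libraries, so the likeness includes that library. For *Serpina3g* they were *Flt1* (0.432), *Dact2* (0.446) and *Lbp* (0.469), beside a spread of 1.94. *C1s1*, a complement protease gene, was at 84.9, 61.9, 273.1 and 245.1 CPM on average in control vehicle, *Notch2* mutant vehicle, control TNFα and *Notch2* mutant TNFα cells. *Flt1*, a receptor of vascular endothelial growth factor, was at 3.59, 7.55, 29.7 and 76.9 CPM in the same order.

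Among 24 other acute-phase protein genes of the liver, 10 of the 17 tested were higher and 1 lower with TNFα in control cells, and 11 of 17 were higher and none lower in *Notch2* mutant cells. Of all genes tested, 23.3% were higher and 20.9% lower in control cells, and 22.6% and 21.9% in *Notch2* mutant cells. The median log2 fold changes of the list were 0.894 and 1.11, against 0.0389 and 0.0258 over all genes. *C3*, the central complement component, stood at 22.7 to 202.9 CPM in control vehicle, 44.5 to 47.3 in *Notch2* mutant vehicle, 997.5 to 1076.1 in control TNFα and 1018.1 to 1078.1 CPM in *Notch2* mutant TNFα libraries. *Lbp*, the lipopolysaccharide binding protein, was at 314.5 to 400 CPM in control TNFα and 460.5 to 509.5 CPM in *Notch2* mutant TNFα libraries, and at 21.5 to 73.4 and 33.9 to 44 CPM with vehicle. The highest control vehicle library for *C3* and *Lbp* was again replicate 4. Between genotypes 1 gene of the list was higher and 3 were lower with vehicle, and 2 were higher and 2 lower with TNFα, where 6.19% and 4.35% of all genes were with vehicle and 5.63% and 4.31% with TNFα. The medians were -0.318 and 0.0437, against -0.00199 and -0.0117 over all genes. Without control vehicle replicate 4 the counts with vehicle were 3 higher and 4 lower, against 5.78% and 4.59% of all genes, and the median was 0.0234. *C3* (0.89, adjusted p = 4.12e-09) and *Lbp* (0.77, adjusted p = 4.69e-07, edgeR) were then among the higher genes. *Serping1*, the C1 inhibitor and a serpin like the *Serpina3* genes, was the 1 past the fold threshold in each, at log2 fold changes of 1.11 (adjusted p = 1.25e-10) and 1.25 (adjusted p = 1.64e-12, edgeR). *Crp*, *Apcs* and *Fgg*, classical products of hepatocytes, had no counts in any group.

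Among 20 cytokines, receptors and transcription factors that drive the acute phase, 13 of 18 tested were higher and 3 lower with TNFα in control cells, and 16 of 20 higher and 2 lower in *Notch2* mutant cells, beside the same shares of all genes (23.3% higher and 20.9% lower, and 22.6% and 21.9%). *Il6* was at 0.152 to 0.714 CPM in control vehicle, 0.467 to 0.552 in *Notch2* mutant vehicle, 0.394 to 0.993 in control TNFα and 1.06 to 2.52 CPM in *Notch2* mutant TNFα libraries. Its log2 fold change between genotypes was 1.11 with TNFα (SE 0.342, adjusted p = 0.0359, edgeR), and it lost the test in 4 of the 8 fits with 1 library left out. With vehicle it was 0.63 (adjusted p = 0.515, edgeR), and 1.38 without control vehicle replicate 4 (adjusted p = 0.114). The interaction of *Il6* was 0.48 (SE 0.609, adjusted p = 0.886, edgeR), and -0.3 without that library. The interaction passed the test for 2 of the 20 genes, against 0.474% of all genes tested. These were *Osmr*, the oncostatin M receptor (0.4, SE 0.0928, adjusted p = 0.0319, edgeR), and *Stat3* (0.33, SE 0.08, adjusted p = 0.0413). They lost it in 9 and 12 of the 16 fits with 1 library left out. For *Osmr* it was 0.34 (adjusted p = 0.0821, edgeR) without control vehicle replicate 4. Between genotypes 1 gene of the list was higher and 2 were lower with vehicle, and 6 were higher and none lower with TNFα, against 6.19% and 4.35% of all genes with vehicle and 5.63% and 4.31% with TNFα, with median log2 fold changes of -0.11 and 0.222. Without control vehicle replicate 4 the counts with vehicle were 2 higher and none lower, against 5.78% and 4.59% of all genes.

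Among 19 receptors, partners and target proteases of the 10 proteins, 3 of 11 tested were higher and 2 lower with TNFα in control cells, and 4 of 13 higher and 2 lower in *Notch2* mutant cells, counts near the shares of all genes that were higher (23.3% and 22.6%) and lower (20.9% and 21.9%). *Tlr2*, a receptor for serum amyloid A, was at 14.3 to 77.5 CPM in control vehicle and 11.1 to 13.7 in *Notch2* mutant vehicle libraries, and at 342.5 to 450.7 and 342.4 to 436.2 CPM with TNFα. *Mmp9*, which LCN2 binds in neutrophils and other cells, was at 0.305 to 6.67 and 1.14 to 1.85 CPM with vehicle and at 38.7 to 47.2 and 40.2 to 46.4 CPM with TNFα, in control and *Notch2* mutant libraries. Between genotypes 4 of 12 were higher and 1 was lower in either condition. Of all genes tested 6.19% were higher and 4.35% lower in *Notch2* mutant cells with vehicle, and 5.63% and 4.31% with TNFα. Without control vehicle replicate 4, 5 were higher and 2 lower with vehicle, against 5.78% and 4.59% of all genes. *Mmp9* was then higher (1.64, adjusted p = 0.00165, edgeR) and *Tlr2* lower (-0.31, adjusted p = 0.0446) in *Notch2* mutant vehicle cells. *Cd163*, the scavenger receptor of macrophages for haptoglobin bound to hemoglobin, had no counts in control vehicle and 19 in *Notch2* mutant vehicle libraries, at least 4.16-fold more (adjusted p = 0.0178, edgeR), and 2 counts in each genotype with TNFα. *Cd163* held enough counts for this test only through the *Notch2* mutant libraries, so the p-value is no support for the difference. *Gzmb*, which encodes granzyme B, was at 0 to 0.298 CPM in control vehicle and 0.598 to 0.896 CPM in *Notch2* mutant vehicle libraries, and at 0 to 0.175 and 0.526 to 0.927 CPM with TNFα (log2 fold changes 2.6 and 3.16, adjusted p = 0.00398 and 0.0016, edgeR). The same limit holds for *Gzmb*, which reached the count filter only through the *Notch2* mutant libraries. *Tnfaip6*, given above, was past the threshold between genotypes with TNFα (log2 fold change 1.02, SE 0.0937, adjusted p = 6.93e-09, edgeR) and passed the interaction test (0.7, SE 0.142, adjusted p = 0.00966). Among 6 other pentraxin genes, *Crp*, *Apcs* and *Ptx4* had no counts, and 3 were tested. With TNFα 2 were higher and 1 lower in control cells, against 23.3% and 20.9% of all genes. In *Notch2* mutant cells 1 was higher and 1 lower, against 22.6% and 21.9%. None of the higher ones was past the fold threshold, which *Ptx3* itself passed in *Notch2* mutant cells only. The lower one, *Nptx2*, was past it in both genotypes (log2 fold changes -2.64 and -2.91). Between genotypes 1 was higher and 1 lower with vehicle, against 6.19% and 4.35%, and none was higher without control vehicle replicate 4. With TNFα none was higher and *Nptx1* was lower (-1.14, adjusted p = 8.03e-07, edgeR), against 5.63% and 4.31%.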

How the data were processed

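RNA-Seq was carried out on 16 libraries (TruSeq stranded mRNA, paired reads, sequenced in 1 pool). The authors deposited whole-number counts per Ensembl gene for each library, made per the submitters' processing notes with HISAT2 2.1.0, SAMtools 1.9 and HTSeq. The notes name GRCm38 and the methods of the study name GRCm39, and the strand setting of the counting is not given in the sources used here. Of the rows, 5 name no gene and held 8.81 to 12.14% of the counts, and these were left out. Gene positions are those of GENCODE M39 (GRCm39) and promoter sequences those of RefSeq (GRCm38.p6).

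Levels are CPM, the counts relative to the library total, after TMM scaling over the 16 libraries. Each comparison was fitted with edgeR 4.0.16 (quasi-likelihood, robust, TMM, R 4.3.3) on its own libraries, or on all 16 for the interaction, over genes with at least 10 counts summed over them, with Benjamini-Hochberg adjustment over all genes tested. Past the threshold means an adjusted p under 0.05 together with a change, up or down, of 1 or more on the log2 scale. Where a vehicle group held 0 counts, the fold is a bound against 3 counts over the group, and where it held 1 to 3 a ratio with a 95% exact interval. Such intervals and floors cover counting error only. The fits were tested on simulated data.

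All 10 genes are named. Of each other list, up to 4 genes past the threshold with the smallest adjusted p could be named in a comparison, with the rest of the *Serpina3* and serum amyloid A genes and *Heyl*, and the text gives those that bear on the 10. The genes, lists and naming rule were chosen with earlier results of these data known. Alternatives were DESeq2 1.42.0, RLE factors, other filters on low counts, all 16 libraries in 1 fit, a replicate block, an adjusted p of 0.1, and leaving out libraries. Total counts per library set the precision of the low genes. The sample annotation calls the libraries of a group biological replicates without saying whether they came from separate animals or cultures, and the p-values measure the spread between these libraries. Counts over the lists without control vehicle replicate 4 were added after seeing the data.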

Additional observations from a re-analysis of the deposited data

Results flagged for a closer look

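Of 95 sets of 4 libraries examined for the genes named, 10 held a library whose gap to the nearest other was, as a share of the range of the group, above Dixon's 95% critical value, and chance flags about 1 in 20. In 8 of the 10 this library was control vehicle replicate 4, the highest of its group: *Saa3* at 62.1 CPM, *Lcn2* at 38.3 CPM, *Serpina3c* at 1.61 CPM, *Lbp* at 73.4 CPM, *C3* at 202.9 CPM, *Tlr2* at 77.5 CPM, *Mmp9* at 6.67 CPM and *Relb* at 33.7 CPM. The other two were both in *Notch2* mutant vehicle replicate 1, with *Serpina3e-ps* the highest at 0.276 CPM, which rests on 4 counts, and *Osmr* the lowest at 93.3 CPM.

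Of the genes named, 4 passed the test of the interaction between genotype and TNFα (edgeR), where 0.474% of all genes tested did. They were *Serpina3e-ps* (3.3 on the log2 scale, adjusted p = 0.0101), *Osmr* (0.4, adjusted p = 0.0319), *Stat3* (0.33, adjusted p = 0.0413) and *Tnfaip6* (0.7, adjusted p = 0.00966). The value of *Serpina3e-ps* rests on 9 counts over the *Notch2* mutant vehicle group, in which it was lower than in control vehicle on average (0.112 against 0.413 CPM). Leaving out 1 library at a time, *Tnfaip6* passed in all 16 fits, *Serpina3e-ps* failed in 2, *Osmr* in 9 and *Stat3* in 12.

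The difference of *C3* between genotypes with vehicle was -0.6 on the log2 scale (adjusted p = 0.77, edgeR) with all libraries, and leaving out 1 library moved it between -0.9 and 0.89, the last without control vehicle replicate 4 with an adjusted p of 4.12e-09. Without that library the interaction also passed for *C3* (-0.87, adjusted p = 1.11e-08) and *Mmp9* (-1.68, adjusted p = 0.000807, edgeR), and *Lbp* was higher in *Notch2* mutant vehicle cells (0.77, adjusted p = 4.69e-07).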

How the results depend on the processing

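Over 46 log2 fold changes of the 10 genes, 713 alternative values were computed, of which 668 kept their direction and side of the threshold, 26 lost the test, 9 gained it and 10 changed sign. With the filterByExpr filter 5 genes were past the threshold with TNFα in control cells in place of 8, since low genes were no longer tested. Leaving out 1 library at a time gave 0 to 1 gene past the threshold between genotypes with vehicle and 1 to 3 with TNFα. For the interaction 1 gene (*Ptx3*) passed with DESeq2, with RLE factors, with filterByExpr and with no filter, and 0 to 1 with 1 library left out. Over all genes the interaction called 101, DESeq2 206, no filter 266 and leaving out 1 library 51 to 156. The sign changed with 1 library left out for *Saa1* between genotypes with TNFα (range -0.59 to 0.063) and in the interactions of *Saa1* (-0.28 to 1.77), *Saa2* (-0.48 to 2.94), *Lcn2* (-0.016 to 0.18) and *Serpina3g* (-0.018 to 0.3). Without both control libraries numbered 4 the interactions were -0.73 for *Saa2*, -0.024 for *Lcn2*, -0.11 for *Serpina3g*, -0.056 for *Serpina3f* and -0.22 for *Serpina3i*. The cause of these changes was not tested. DESeq2 gave no adjusted p for *Saa3* with TNFα in control cells, which is left out.

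Libraries with the same number did not deviate together (16 correlations of -0.19 to 0.142, of which 1 was over 0.1), so the numbers are not read as pairs. With the replicate block 6, 8, 1 and 2 genes were past the threshold in the 2-group comparisons, in the order control and *Notch2* mutant with TNFα, vehicle and TNFα between genotypes, and 0 in the interaction. *Saa1* (adjusted p = 0.071), *Saa3* (0.0715) and *Serpina3i* (0.0946) lost the test (edgeR). Over all genes the replicate block gave 2081, 2572, 239, 241 and 74 calls, against 2279, 2720, 244, 272 and 101.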

Other observations

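Of 10 genes of negative acute-phase proteins of the liver, 3 held enough counts for the test of TNFα in control cells. There 1 was higher and 2 were lower (1 and 1 without control vehicle replicate 4), against 23.3% and 20.9% of all genes. In *Notch2* mutant cells 1 of 3 was higher and 1 lower, against 22.6% and 21.9%. Between genotypes none was higher, and 1 of 2 was lower with vehicle and 1 of 3 with TNFα, against 4.35% and 4.31% of all genes. *Serpina6*, which encodes the corticosteroid binding globulin, had 2 counts over the control vehicle and 0 over the *Notch2* mutant vehicle group, and 41 and 21 counts with TNFα (adjusted p = 0.000224 and 0.000241, edgeR; 7.32e-05 in control cells without control vehicle replicate 4). *Serpina6* held enough counts for these tests only through the TNFα libraries, so the p-values are no support for the rise. *A2m*, a protease inhibitor of the acute phase, was lower in *Notch2* mutant than in control cells in either condition, at 11.4 to 14.6 against 19.6 to 24.6 CPM with vehicle and 28 to 34.8 against 47.8 to 52.3 CPM with TNFα (log2 fold changes -0.72 and -0.76, adjusted p = 7.12e-06 and 3.47e-08, edgeR), and so shared the direction of *Lcn2*.

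Hepatocyte markers were close to absent: 7 genes summed to 0.409 to 1.66 CPM over all libraries, with *Ttr* and *Serpina1a* at 0 counts in every group. Neutrophil markers, 9 genes, summed to 0.0643 to 0.718 CPM with vehicle and 1.38 to 2.76 CPM with TNFα, with *Elane* at 0 counts in 3 of the 4 groups. Most of this rise was *Camp*, with means of 0.168 and 1.41 CPM in control and 0.0915 and 1.57 CPM in *Notch2* mutant cells. It was the only 1 higher of 2 tested in control cells, against 23.3% of all genes, and of 3 in *Notch2* mutant cells, against 22.6%. Endothelial markers, 5 genes, were at 6.52 to 8.75 CPM in control vehicle, 15.2 to 19.4 CPM in *Notch2* mutant vehicle, 9.04 to 12 CPM in control TNFα and 17.2 to 22.2 CPM in *Notch2* mutant TNFα libraries. Of the 5, 3 were higher in *Notch2* mutant cells in either condition, against 6.19% of all genes with vehicle and 5.63% with TNFα. Fibroblast markers, 7 genes, were at 31636.7 to 34591.9 CPM in control vehicle and 36031 to 38676.9 CPM in *Notch2* mutant vehicle libraries. With TNFα they were at 30973.8 to 34001.9 CPM in control and 34613.7 to 42523.4 CPM in *Notch2* mutant libraries. Between genotypes 3 were higher and 2 lower with vehicle, against 6.19% and 4.35% of all genes. With TNFα 4 were higher and 1 lower, against 5.63% and 4.31%. The part of these markers in the differences between genotypes was not tested.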
